A study of Mus musculus with 8 samples.

Results

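The collagen genes of the mouse were examined in superior cervical ganglia of mice with a conditional knockout of the kinesin KIF1Bb by a DBHcre transgene. They were taken as every gene of the count table with a symbol of the form Col, a number, a and a number, which gave 43 genes among 23827 rows. The genes belong to 26 collagen types and were placed in 6 classes by type: 11 fibrillar, 9 basement membrane, 6 type VI, 9 FACIT (fibril-associated collagens with interrupted helices), 4 transmembrane and 4 others.

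Gene expression had been measured by sequencing polyadenylated RNA. The cKO animals carried KIF1Bb fl/fl and DBHcre +/-, in which Cre recombinase is driven by the promoter of dopamine beta-hydroxylase, the enzyme that makes noradrenaline. The WT animals also carried KIF1Bb fl/fl but were DBHcre -/-. All were of strain C57Bl6/n and on postnatal day 1, and there were 4 libraries per genotype, each from the ganglion pair of 1 animal. Total counts per library ranged from 16214912 to 18114418. Kif1b had 302, 191, 299.7 and 246 CPM in cKO 1 to 4, against 1454, 1319.8, 933 and 1191 CPM in WT 1 to 4, where CPM (counts scaled to equal TMM-adjusted library size) is the unit of level used throughout. Its level fell in cKO ganglia (log2 fold change -2.24, SE 0.18, edgeR adjusted p = 0.000343), with all isoforms and all cells of the ganglion in 1 count. The noradrenergic marker Dbh was high in all libraries, at 2029.9 to 2196 CPM in cKO and 2262 to 2695 CPM in WT ganglia. Every cKO value of Dbh lay below every WT value, though its edgeR adjusted p was not below 0.05. The first principal component of all genes held 37.1% of the variance. On it cKO 1 and WT 1 lay lowest, at -37.1 and -32.9, and cKO 3 came next at -12.8. The other libraries lay between 7.68 and 23.0. The calls are also given without both cKO 1 and WT 1.

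Collagens are proteins of the extracellular matrix in which glycine-rich chains wind into a stiff helix. Fibrillar collagens form the cables of connective tissue, type IV collagen forms the sheet of basement membranes, and type VI forms beaded filaments between fibrils and basement membranes. FACIT collagens sit on the surface of fibrils, and transmembrane collagens span the plasma membrane of the cell that makes them. In peripheral ganglia, fibroblasts of the capsule, cells of the vessel wall and glia are known sources of collagen, and glia and vessels lie on basement membranes.

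Collagen genes held a larger part of the counts in cKO ganglia. Their summed counts made up 1.37, 1.42, 1.03 and 1.33% of all counts in cKO 1 to 4, against 0.800, 0.739, 0.910 and 0.847% in WT 1 to 4. Each cKO library lay above each WT library, with cKO 3 the lowest of its group. Col1a1, Col1a2 and Col3a1, the chains of types I and III, together gave between 61.5 and 70.5% of the collagen CPM in cKO libraries and between 58.0 and 68.0% in WT libraries. 

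Of the 43 genes, 41 passed the filter on low counts and were tested. At an adjusted p below 0.05 in edgeR's quasi-likelihood test, 7 rose in cKO ganglia: Col1a2, Col3a1, Col5a1, Col5a2, Col6a1, Col6a3 and Col18a1. They are 17.1% of the collagen genes tested, where 2.72% of all 14592 tested genes passed in either direction and 1.6% passed as higher. No collagen gene fell, where 1.12% of all tested genes did, and none was lower at an unadjusted p below 0.05 or in the DESeq2 Wald test or limma voom. Log2 fold changes were positive in 35 and negative in 6 of the 41, where 49.9% of all tested genes had a positive value, with a median of 0.49 in collagen genes, beside -0.000618 over all tested genes. In 13 collagen genes every cKO library lay above every WT library, which is 31.7% of those tested, where 6% of all tested genes did so, and in none was every cKO library below every WT library, where 5.02% of all tested genes were. Low genes pass the filter more easily when 1 group is high, so these counts describe the genes tested and not the family. CPM are shares of the counts of a library. In bulk RNA, more cells of a type, more RNA per cell and less RNA from other cells cannot be told apart.

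**Figure D1:**
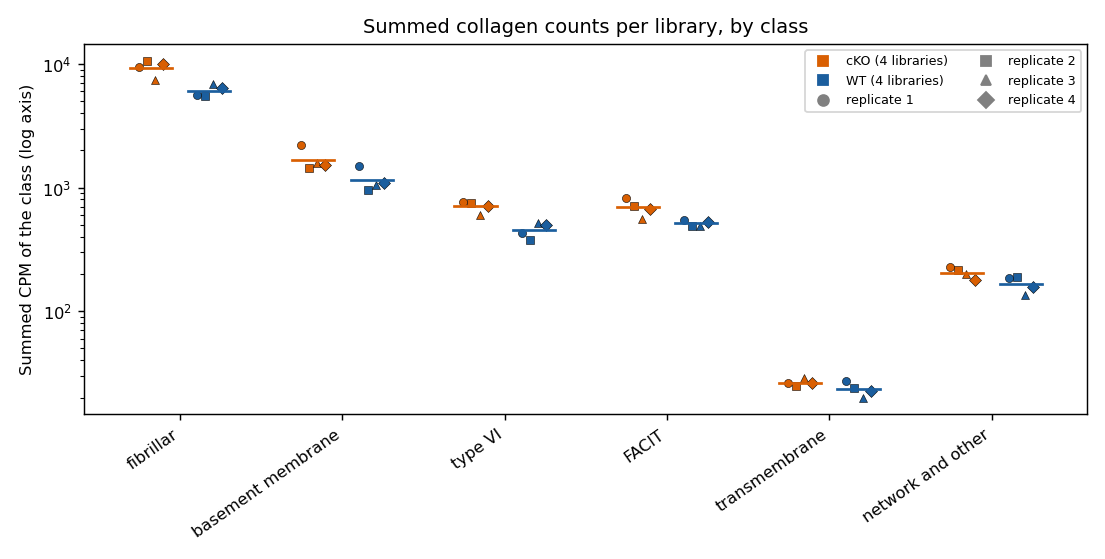
Summed CPM of the genes of each collagen class in each library (log axis, cKO left of WT, symbols by replicate number, bars at group means). Fibrillar collagens summed to between 7406 and 10593 CPM in cKO and between 5494 and 6841 CPM in WT libraries, and transmembrane collagens reached at most 28.6 CPM in any library.

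The number of collagen genes that passed depended on single libraries. It was 4 without cKO 1, 1 without cKO 2, 13 without WT 1, 1 without WT 2 and 0 without WT 4. In this last setting 18 collagen genes had an unadjusted p below 0.05 in edgeR. Over all genes the share that passed was 2.13%, 1%, 3.49%, 0.536% and 0.503% in these 5 settings. Leaving out cKO 1 and WT 1 together gave 9 collagen genes, all higher, and 3 of the 7 were among them (Col1a2, Col5a2 and Col18a1). None of the 41 genes was called lower in any setting tried. The DESeq2 Wald test called 17 collagen genes, where it called 6.94% of all genes, and the 10 beside the 7 were Col1a1, Col4a2, Col6a2, Col8a1, Col8a2, Col9a2, Col12a1, Col16a1, Col20a1 and Col27a1.

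The fibrillar collagens build the main cables of connective tissue, and 4 of 11 rose. Values of log2 fold change were positive in 10 of the 11, with a median of 0.58. Col3a1 encodes the chain of type III collagen, the fine fibrils of soft tissue (chromosome 1, 45311538 to 45349706, plus strand, GRCm38), and had the highest level per length of all collagen genes. In RPKM, the CPM per kilobase of the longest coding transcript, it averaged 732 ± 104 RPKM in cKO and 485 ± 62.2 RPKM in WT ganglia (SD, n = 4 each). Its levels were 3994, 4649.7, 3308 and 4347 CPM in cKO 1 to 4, against 2289, 2555, 3078 and 2863 CPM in WT 1 to 4. All cKO libraries were above all WT libraries, but cKO 3 and WT 3 were close to each other. Col3a1 rose in cKO ganglia (log2 fold change 0.60, SE 0.13, edgeR adjusted p = 0.0386), and its call was lost without any single library other than cKO 3 or WT 3.

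Type I collagen, the most common fibril former of the body, is built from the products of Col1a1 and Col1a2. Col1a2 (chromosome 6, 4504814 to 4541544, plus strand) had 2495, 2909.6, 1997 and 2744 CPM in cKO 1 to 4, against 1492, 1497, 1757 and 1647 CPM in WT 1 to 4. The groups did not overlap, and Col1a2 rose (log2 fold change 0.67, SE 0.12, edgeR adjusted p = 0.0216), a call lost without cKO 2, WT 2 or WT 4. Its partner Col1a1 had 1805, 2109.6, 1231 and 1857 CPM in cKO 1 to 4, against 1019, 848, 1315 and 1180.1 CPM in WT 1 to 4. Here cKO 3 lay below WT 3, so the groups overlapped, and Col1a1 did not pass (log2 fold change 0.68, SE 0.18, edgeR adjusted p = 0.0702). Without cKO 3 it did pass, with a log2 fold change of 0.81. Per length, the level of Col1a1 relative to that of Col1a2 was 0.556 to 0.654 in cKO and 0.511 to 0.675 in WT libraries, so the ratio of the 2 chains overlapped between genotypes.

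Type V collagen is a minor component that starts fibrils and sets their width. Col5a2 (chromosome 1, 45374321 to 45503282, minus strand) showed 390.0, 409, 364 and 378 CPM in cKO 1 to 4, against 247, 249.7, 267 and 268 CPM in WT 1 to 4. Both groups were tight and well apart, and Col5a2 had the smallest p of the collagen genes (log2 fold change 0.58, SE 0.09, edgeR adjusted p = 0.00856). Of the 8 libraries, WT 4 was the only one without which its call was lost. Col5a1 (chromosome 2, 27886425 to 28039514, plus strand) was measured at 343, 297, 232 and 278 CPM in cKO 1 to 4, against 154, 149.7, 203 and 183 CPM in WT 1 to 4. It rose as well (log2 fold change 0.74, SE 0.14, edgeR adjusted p = 0.0265), a call lost without cKO 2, WT 2 or WT 4. The third chain gene, Col5a3, behaved otherwise, with 261, 116, 156 and 169 CPM in cKO 1 to 4, against 267, 118, 143 and 159 CPM in WT 1 to 4. It was highest in replicate 1 of both genotypes and its groups overlapped fully (log2 fold change 0.03, SE 0.28, edgeR adjusted p = 0.98). The sign of this small difference turned without cKO 1, WT 2, WT 3 or WT 4.

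The other fibrillar genes were lower in level and did not pass. Col27a1, which encodes a fibrillar collagen of cartilage and other tissues, had 44.4 ± 11.5 CPM in cKO and 23.6 ± 6.62 CPM in WT ganglia (SD, n = 4 each) and a log2 fold change of 0.91 (SE 0.22). Its groups did not overlap (edgeR adjusted p = 0.0581). Col11a1 had 54.1 ± 6.67 CPM in cKO and 39.7 ± 9.18 CPM in WT ganglia (SD, n = 4 each) with a log2 fold change of 0.45 (SE 0.16). Col24a1 and Col11a2 had 0.23 (SE 0.21) and 0.38 (SE 0.37). Col2a1, the main collagen of cartilage, averaged 7.50 ± 4.24 CPM in cKO and 8.28 ± 4.21 CPM in WT ganglia (SD, n = 4 each) and had the only negative value of the class, -0.14 (SE 0.40).

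**Figure D2:**
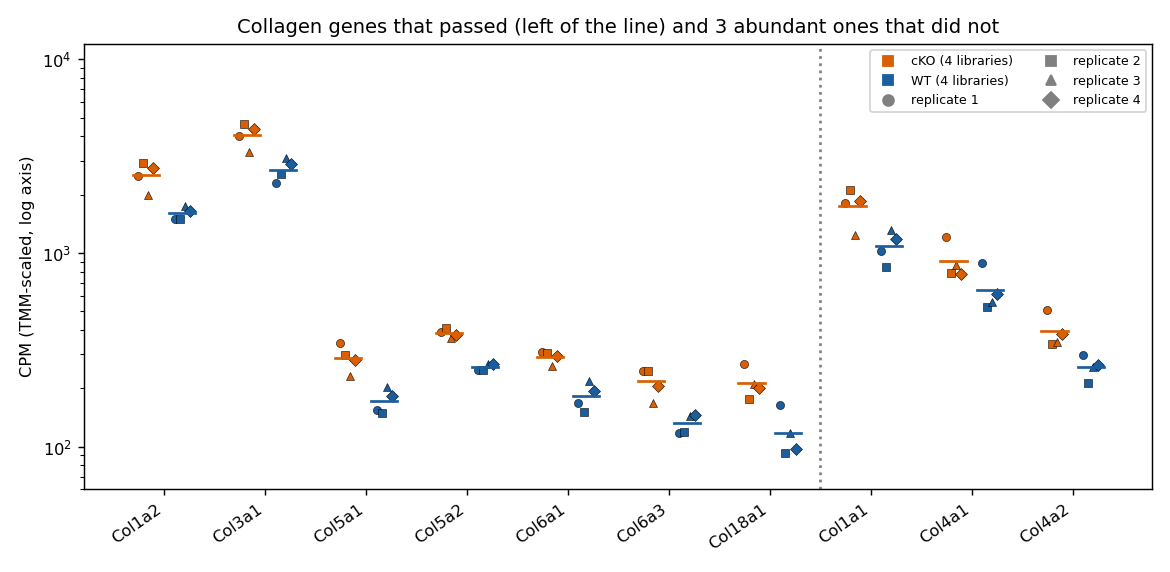
CPM of 10 collagen genes in each library (log axis, cKO left of WT, symbols by replicate number, bars at group means). Left of the dotted line stand the 7 genes that passed, with all cKO points above all WT points, and right of it Col1a1, Col4a1 and Col4a2, which did not pass.

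Type VI collagen links fibrils to the cell surface and is assembled from the chains of several genes. Of its 6 genes 2 rose and 5 had a positive log2 fold change (median 0.60). Col6a1 (chromosome 10, 76708792 to 76726168, minus strand) had 306, 306, 260.4 and 293 CPM in cKO 1 to 4, against 169, 150.1, 218 and 194 CPM in WT 1 to 4. Its cKO libraries lay within a narrow range above all WT libraries (log2 fold change 0.67, SE 0.13, edgeR adjusted p = 0.0224). Per length it was the most abundant of the class, at 71.1 ± 5.24 RPKM in cKO and 44.5 ± 7.19 RPKM in WT ganglia (SD, n = 4 each). Col6a3, the gene of the longest chain (chromosome 1, 90765923 to 90843971, minus strand), had 246, 246, 169 and 206 CPM in cKO 1 to 4, against 117, 119, 144 and 146 CPM in WT 1 to 4 and rose too (log2 fold change 0.72, SE 0.14, edgeR adjusted p = 0.0273). Both calls were lost without cKO 2, WT 2 or WT 4, that of Col6a1 also without cKO 3 and that of Col6a3 also without cKO 1.

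Col6a2, whose product joins those of Col6a1 and Col6a3 in the common form of the protein, averaged 194 ± 19.5 CPM in cKO and 135 ± 20.1 CPM in WT ganglia (SD, n = 4 each). Its groups did not overlap, but it did not pass (log2 fold change 0.52, SE 0.13, edgeR adjusted p = 0.0606). Per length, Col6a1 relative to Col6a2 was 1.64 to 1.78 in cKO and 1.40 to 1.67 in WT libraries, and Col6a3 relative to Col6a1 was 0.263 to 0.326 in cKO and 0.268 to 0.323 in WT libraries. The genes of the further type VI chains were scarce: Col6a4, Col6a5 and Col6a6 averaged 0.982, 2.04 and 3.19 CPM in cKO and 1.10, 1.56 and 1.63 CPM in WT ganglia. None of these passed. Col6a6 had the largest log2 fold change of the class, 0.97 (SE 0.32, edgeR adjusted p = 0.154), and 0.697 to 1.18 with 1 library left out. Col6a5 was dominated by cKO 4, at 6.04 CPM, and its log2 fold change of 0.40 went to -1.12 without that library.

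The bases before the start site are shown for the 3 genes that passed and whose upstream 100 bases hold no annotated exon, to set side by side the promoters of genes that rose together. They are from RefSeq (GRCm38.p6), written in the direction of transcription, and capitals mark GGGCGG, the core of a GC box.
Col3a1 upstream (chr1:45311438-45311537, plus strand): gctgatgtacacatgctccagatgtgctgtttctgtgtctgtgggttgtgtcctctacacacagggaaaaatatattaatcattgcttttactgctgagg
Col5a1 upstream (chr2:27886325-27886424, plus strand): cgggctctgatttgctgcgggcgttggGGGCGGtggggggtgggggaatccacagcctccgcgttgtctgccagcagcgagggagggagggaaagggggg
Col6a3 upstream (chr1:90843972-90844071, minus strand): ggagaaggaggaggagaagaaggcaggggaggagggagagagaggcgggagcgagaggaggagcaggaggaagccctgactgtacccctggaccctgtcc
Their GC content was 43.0%, 71.0% and 65.0%, so the upstream bases of Col3a1 were far richer in A and T than the other 2. Besides GGGCGG, the motif CCAAT and the TATA box TATAAA were searched, each on both strands, in windows from 250 bases before to 50 after each start, which exist for 35 of the 43 genes, 38 windows in all. GGGCGG was in 23 of these 38 windows (60.5%), against 35.7% of all 32851 windows of the table. Some collagen windows share bases: those of Col4a1 and Col4a2 hold a match in common, and those of Col6a2 overlap each other. The windows compared were not matched for GC content. CCAAT was in 34.2% of the collagen windows and in 37.4% of all windows, and TATAAA in 13.2% and 13.6%. The 6 genes that passed and have a window have 7 of them. GGGCGG was in 3 of these, CCAAT was in 2, and TATAAA was in 1, that of Col3a1. This TATAAA does not lie within the 100 bases of Col3a1 printed above. A match says only that these letters stand in the window.

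Basement membrane collagens included the 6 chains of type IV, the anchoring fibril collagen Col7a1, and Col15a1 and Col18a1, which carry sugar chains and lie at the border of basement membranes. Of these 9 genes 1 rose and 8 had a positive log2 fold change (median 0.36). It was Col18a1, whose C-terminal part is known as endostatin. Col18a1 (chromosome 10, 77052178 to 77166548, minus strand) had 266, 175, 210.3 and 201 CPM in cKO 1 to 4, against 163, 92.9, 118 and 97.6 CPM in WT 1 to 4. All cKO libraries were above all WT libraries, and WT 1 was the highest WT library (log2 fold change 0.86, SE 0.19, edgeR adjusted p = 0.0424). Its call was lost without any single library other than WT 1, and it overlaps Slc19a1 on the opposite strand. Col15a1, its closest relative, averaged 132 ± 28.2 CPM in cKO and 103 ± 11.4 CPM in WT ganglia (SD, n = 4 each) and did not pass (log2 fold change 0.36, SE 0.15, edgeR adjusted p = 0.252).

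Type IV collagen of most basement membranes is made from Col4a1 and Col4a2, which stand head to head. Col4a1 (chromosome 8, 11198423 to 11312826, minus strand) was the most abundant of the class per length, at 138 ± 30.5 RPKM in cKO and 97.8 ± 25.0 RPKM in WT ganglia (SD, n = 4 each). It had 1206, 784, 871 and 778 CPM in cKO 1 to 4, against 889.6, 528, 557 and 612 CPM in WT 1 to 4. WT 1 exceeded 3 of the 4 cKO libraries, and Col4a1 did not pass (log2 fold change 0.49, SE 0.19, edgeR adjusted p = 0.219). Col4a2 (chromosome 8, 11312805 to 11449287, plus strand) had 509.8, 339, 347 and 383 CPM in cKO 1 to 4, against 297, 212, 257 and 265 CPM in WT 1 to 4. Its groups did not overlap, but it did not pass either (log2 fold change 0.61, SE 0.15, edgeR adjusted p = 0.0585). Without WT 1, and without cKO 1 and WT 1 together, both genes passed. Scaling by library size alone, the unfiltered table and the DESeq2 Wald test also called Col4a2, and a replicate block called both genes.

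The 2 annotated genes overlap by 22 bases within exons of both. This stretch is shown because a read in it lies within both genes by position. It is written on the plus strand, the strand of Col4a2, with GGGCGG in capitals.
Col4a1 and Col4a2 overlap (chr8:11312805-11312826): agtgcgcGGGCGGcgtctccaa
Counting may or may not have used strand, a setting not given in the sources used here. Per length, Col4a1 relative to Col4a2 was 1.98 to 2.45 in cKO and 2.11 to 2.92 in WT libraries, and the ranges overlapped.

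The remaining type IV genes were low. Col4a5 averaged 13.9 ± 2.60 CPM in cKO and 10.9 ± 2.70 CPM in WT ganglia (SD, n = 4 each) with a log2 fold change of 0.36 (SE 0.20). Col4a3, Col4a4 and Col4a6, which with Col4a5 form the networks of kidney, eye and smooth muscle, were between 0.737 and 1.79 CPM on average in cKO ganglia and between 0.518 and 1.73 CPM in WT ganglia. Their log2 fold changes were -0.19 (SE 0.35), 0.23 (SE 0.28) and 0.51 (SE 0.42) and did not pass. Col7a1, which anchors the epidermis to the dermis, averaged 6.10 ± 3.15 CPM in cKO and 5.86 ± 3.11 CPM in WT ganglia (SD, n = 4 each), with 0.06 (SE 0.40).

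**Figure D3:**
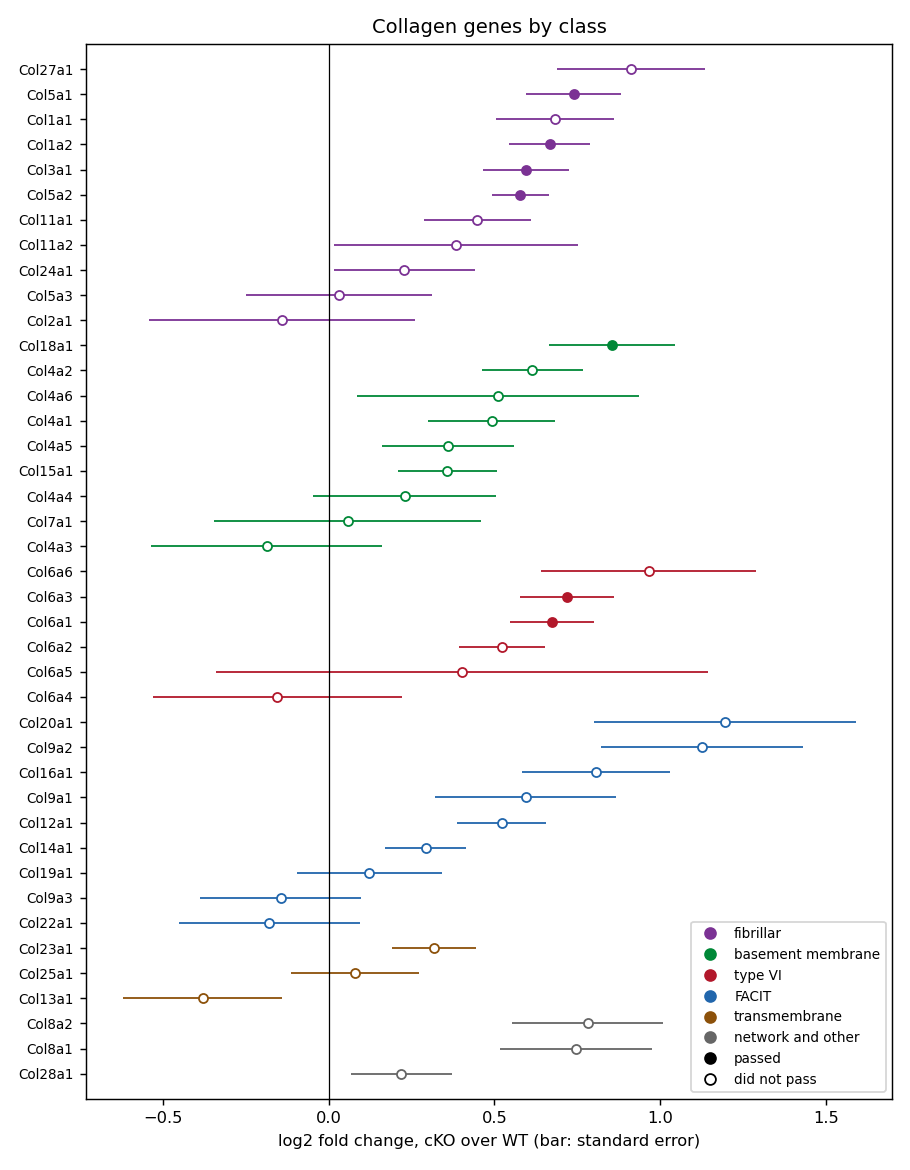
Log2 fold change of each of the 41 tested collagen genes, cKO over WT, with its standard error, grouped and coloured by class. Filled points are the 7 genes that passed, all between 0.58 and 0.86, and 6 of the open points lie below 0.

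No FACIT collagen passed among 9, although 5 were higher at an unadjusted p below 0.05 in edgeR and 4 were called higher by the DESeq2 Wald test, with 0 by limma voom. The median log2 fold change was 0.52, and 7 of 9 were positive. Col14a1, a fibril-associated collagen of dense connective tissue, had the highest level per length of the class, at 56.7 ± 9.16 RPKM in cKO and 46.3 ± 1.96 RPKM in WT ganglia (SD, n = 4 each). It had 405, 410.0, 282 and 366 CPM in cKO 1 to 4, against 287, 303, 291 and 315 CPM in WT 1 to 4. The value of cKO 3 lay below all WT libraries (log2 fold change 0.29, SE 0.12, edgeR adjusted p = 0.259). Col12a1, a close relative of Col14a1, had 153, 145, 105 and 115 CPM in cKO 1 to 4, against 88.3, 82.9, 89.5 and 100.1 CPM in WT 1 to 4. Its groups did not overlap, and it had the smallest p of the class (log2 fold change 0.52, SE 0.13, edgeR adjusted p = 0.0682). Col16a1 averaged 126 ± 37.1 CPM in cKO and 72.0 ± 19.5 CPM in WT ganglia (SD, n = 4 each). It did not pass (log2 fold change 0.81, SE 0.22, edgeR adjusted p = 0.0878), but it passed without WT 1.

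Col20a1 and Col9a2 had the largest fold changes of all collagen genes, 1.20 (SE 0.40) and 1.13 (SE 0.30), and neither passed (edgeR adjusted p = 0.148 and 0.0809). Col20a1 had 21.9, 9.25, 17.1 and 10.7 CPM in cKO 1 to 4, against 12.4, 3.76, 5.44 and 4.13 CPM in WT 1 to 4. Col9a2, one of the chains of the cartilage collagen type IX, had 27.4, 12.7, 19.4 and 18.8 CPM in cKO 1 to 4, against 14.9, 5.70, 7.62 and 7.60 CPM in WT 1 to 4. In both genes WT 1 was above the lowest cKO library and well above the other WT libraries. Without WT 1 both passed, with log2 fold changes of 1.72 and 1.48. Of its partner chains, Col9a1 averaged 1.49 ± 0.192 CPM in cKO and 0.987 ± 0.373 CPM in WT ganglia (SD, n = 4 each; log2 fold change 0.59 (SE 0.27)). Col9a3 averaged 17.3 ± 3.80 CPM in cKO and 19.1 ± 6.98 CPM in WT ganglia (SD, n = 4 each; log2 fold change -0.15 (SE 0.24)), and neither passed. Col19a1 and Col22a1 had 0.12 (SE 0.22) and -0.18 (SE 0.27).

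Transmembrane collagens were scarce, and none of the 3 tested passed (1 higher at an unadjusted p below 0.05 in edgeR, 0 by DESeq2 and 0 by limma voom). Col23a1 had the highest level per length of them, at 2.29 ± 0.250 RPKM in cKO and 1.84 ± 0.125 RPKM in WT ganglia (SD, n = 4 each), and the smallest p. It had 11.8, 13.9, 11.6 and 14.4 CPM in cKO 1 to 4, against 10.8, 10.6, 9.33 and 10.8 CPM in WT 1 to 4. The groups did not overlap (log2 fold change 0.32, SE 0.13, edgeR adjusted p = 0.234), though by a narrow gap. Col25a1, whose product was first described in amyloid plaques of the brain, and Col13a1, a collagen of the neuromuscular junction, averaged 12.1 and 1.02 CPM in cKO and 11.5 and 1.33 CPM in WT ganglia. Their log2 fold changes were 0.08 (SE 0.19) and -0.38 (SE 0.24). Col17a1, the hemidesmosome collagen of epithelia, was under the filter, with at most 9 counts in a library.

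Among the other collagens, Col28a1 stood out by its level. Col28a1 encodes a collagen with domains like those of type VI, known from the glia of peripheral nerve, and averaged 40.3 ± 6.03 RPKM in cKO and 34.6 ± 6.24 RPKM in WT ganglia (SD, n = 4 each). It had 198, 172, 174 and 137 CPM in cKO 1 to 4, against 171, 165, 115 and 135 CPM in WT 1 to 4. The groups overlapped and it did not pass (log2 fold change 0.22, SE 0.15, edgeR adjusted p = 0.549). Col8a2, a network collagen of corneal endothelium, had 6.23, 7.76, 5.73 and 8.90 CPM in cKO 1 to 4, against 3.19, 3.13, 5.44 and 4.86 CPM in WT 1 to 4. Each cKO library was above each WT library, but cKO 3 and WT 3 nearly met (log2 fold change 0.78, SE 0.23, edgeR adjusted p = 0.103). Col8a1, its partner in vessel walls, averaged 26.8 ± 7.62 CPM in cKO and 16.0 ± 3.77 CPM in WT ganglia (SD, n = 4 each) with a log2 fold change of 0.75 (SE 0.23). Neither passed in the main edgeR fit or limma voom, and both passed in the DESeq2 Wald test. Col8a1 also passed with a replicate block. Col10a1, the collagen of hypertrophic cartilage, was under the filter, with 26 counts in cKO 1 and 6 to 7 in the other cKO libraries, against 10 counts in WT 1 and 2 to 5 in the other WT libraries.

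Per length, the order of the collagen genes was led in both genotypes by Col3a1, Col1a2, Col1a1 and Col4a1. Col1a2 averaged 474 ± 74.4 RPKM in cKO and 299 ± 23.9 RPKM in WT ganglia and Col1a1 295 ± 62.6 RPKM in cKO and 184 ± 34.0 RPKM in WT ganglia (SD, n = 4 each). Each of these 4 genes lay further from the next than the SD of either in both genotypes. Below them, Col6a1, Col4a2, Col5a2, Col14a1, Col6a2 and Col28a1 lay between 40.3 and 71.1 RPKM in cKO ganglia and between 29.0 and 46.3 RPKM in WT ganglia. In WT ganglia, neighbours among these 6 were no further apart than the larger of their SDs. The lowest were Col4a6, at 0.111 ± 0.0476 RPKM in cKO and 0.0780 ± 0.0348 RPKM in WT ganglia, and Col17a1, at 0.0710 ± 0.0177 RPKM in cKO and 0.0601 ± 0.0322 RPKM in WT ganglia (SD, n = 4 each).

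Some collagen genes set replicate 1 of both genotypes apart. Col2a1 had 13.6, 3.88, 6.75 and 5.77 CPM in cKO 1 to 4, against 14.6, 6.02, 6.01 and 6.50 CPM in WT 1 to 4, and Col7a1 had 10.5, 3.16, 6.13 and 4.64 CPM in cKO 1 to 4, against 10.4, 4.20, 3.61 and 5.23 CPM in WT 1 to 4. In both, cKO 1 and WT 1 were about level with each other and far above the other 6 libraries. On the log2 scale, cKO 1 exceeded the mean of cKO 2 to 4 by 1.31 in Col2a1 and 1.17 in Col7a1, and WT 1 exceeded the mean of WT 2 to 4 by 1.24 and 1.26. Of the 41 tested genes, 2 exceeded 1 on this scale in both genotypes, 2 in cKO 1 and 5 in WT 1. Over all 14590 tested genes with a value in both, 88 did so in both genotypes, 182 in cKO 1 and 270 in WT 1. Across the 41 genes the difference of cKO 1 and that of WT 1 from their groups had a Pearson r of 0.70 (Spearman rho 0.66), beside 0.70 over these 14590 genes. The points share the libraries, so no p is given. The GC content of the longest coding transcript moved with the difference in cKO 1 (Pearson r = 0.50) and in WT 1 (0.47) over the same 41 genes. It was 62.2% in Col2a1, 61.6% in Col7a1 and 61.6% in Col5a3, against 46.8% in Col8a1 and 49.6% in Col5a2. These are examples that go with the correlation, and other genes departed from it. Col8a2, at 59.1%, had differences of -0.26 in cKO 1 and -0.49 in WT 1. Col11a1, at 48.0%, had 0.31 and 0.56.

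Skeletal muscle and epithelial markers were highest in the same libraries, and cartilage markers were not. Summed over 6 skeletal muscle markers, cKO 1 had 28.5 CPM and the other cKO libraries had between 3.88 and 6.07 CPM. WT 1 had 10.8 CPM and the other WT libraries had between 4.83 and 4.98 CPM. Cartilage markers did not follow this order: 7 of them summed to 17.2 CPM in cKO 1 and 15.2 CPM in WT 1, with ranges of 16.3 to 34.9 CPM over cKO and 15.2 to 29.1 CPM over WT libraries. The defining cartilage gene Matn1 had at most 2 counts in any library and Acan at most 21, in cKO 4. The summed bone markers were 5.71 CPM in cKO 1 and 5.03 CPM in WT 1, and at most 3.72 CPM elsewhere, but Runx2 alone gave 4.57 CPM of this in cKO 1 and 4.23 CPM in WT 1. The bone genes Sp7 and Ibsp were not highest in replicate 1 of either genotype. Epithelial markers were low but followed the order of replicate 1, with a sum of 1.54 CPM in cKO 1 and 0.216 to 0.284 CPM in the other cKO libraries. WT 1 had 0.981 CPM and the other WT libraries had 0.0627 to 0.365 CPM. The part of tissue around the ganglion, and of GC content, in the levels of replicate 1 was not tested.

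**Figure D4:**
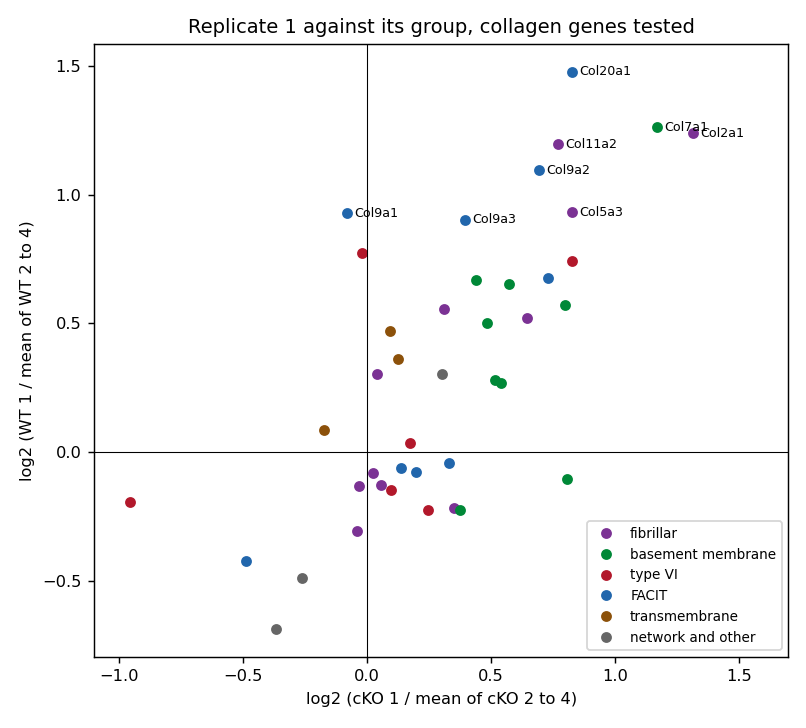
For each tested collagen gene, the log2 ratio of cKO 1 to the mean of cKO 2 to 4 (horizontal) and of WT 1 to the mean of WT 2 to 4 (vertical), coloured by class. Col2a1 and Col7a1 lie above 1 on both axes, and Col1a1, Col1a2 and Col5a2 lie near 0 on both.

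Summed markers of fibroblasts, endothelial cells and mural cells were higher in cKO ganglia, with no overlap between genotypes. The 5 fibroblast markers summed to 576 to 850.0 CPM in cKO and 357 to 526 CPM in WT libraries, with 2 of 5 higher and a median log2 fold change of 0.59. Endothelial and mural cell markers each had 2 of 5 higher, with medians of 0.53 and 0.57. Over all tested genes 1.6% passed as higher and 1.12% as lower. Endothelial markers ranged from 190.0 to 202 CPM in cKO and from 114 to 161 CPM in WT libraries. Mural markers ranged from 232 to 319 CPM in cKO and from 160.2 to 179 CPM in WT libraries. Of 6 glial markers none passed in edgeR (3 higher at an unadjusted p below 0.05 and in DESeq2, 1 in limma voom), with a median of 0.48 and sums of 940.4 to 1115 CPM in cKO and 744 to 978 CPM in WT libraries. Sympathetic neuron markers summed to 4898 to 5378 CPM in cKO and 5349 to 6178 CPM in WT libraries, and none of 6 passed (2 lower at an unadjusted p below 0.05 in edgeR, 0 by DESeq2 or limma voom). No macrophage marker of 4 passed (0 at an unadjusted p below 0.05 in edgeR, 0 by DESeq2 or limma voom), and their sums were 59.4 to 91.0 CPM in cKO and 59.1 to 77.1 CPM in WT libraries.

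Set against these markers, collagen levels overlapped between the genotypes. Summed fibrillar collagen CPM divided by summed fibroblast marker CPM was 12.1 to 16.4 in cKO libraries and 11.5 to 15.7 in WT libraries. Most of that marker sum is Dcn and Lum, which are matrix genes themselves. Divided by Prrx1 alone, a transcription factor of connective tissue cells, it was 276 to 331 in cKO libraries and 288 to 347 in WT libraries. Divided by Pdgfra, a growth factor receptor of fibroblasts, it was 98.6 to 166 in cKO libraries and 157 to 224 in WT libraries, and the ranges overlapped by little. Col4a1 plus Col4a2 divided by the summed endothelial and mural markers was 2.16 to 3.75 in cKO libraries and 2.69 to 3.49 in WT libraries. These ratios describe the libraries and were given no test, and the part of cell numbers in the collagen differences was not tested.

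Genes that act on collagen were followed by role. The counts in each list stand beside 1.6% of all tested genes that passed as higher and 1.12% as lower. Of 19 genes for the synthesis and folding of chains in the endoplasmic reticulum 1 rose and none fell (median 0.19). It was Fkbp10, a folding enzyme that helps crosslinking, with 53.9, 56.8, 46.7 and 60.3 CPM in cKO 1 to 4, against 37.1, 29.6, 36.8 and 32.5 CPM in WT 1 to 4 (log2 fold change 0.68, SE 0.12, edgeR adjusted p = 0.018), a call lost without WT 2 or WT 4. Serpinh1, the collagen chaperone, had 0.50 (SE 0.18) and did not pass. In this list 7 genes were higher at an unadjusted p below 0.05 in edgeR, 1 by DESeq2 and 1 by limma voom. None of 13 genes for the export of large cargo passed (0 at an unadjusted p below 0.05 in edgeR, 0 by DESeq2 or limma voom), with a median of 0.03. The 2 of them with the smallest p were the transcription factors Creb3l1 at 0.43 (SE 0.20) and Creb3l2 at 0.40 (SE 0.21).

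Of 13 genes for procollagen processing and crosslinking, Lox rose and none fell (median 0.50). At an unadjusted p below 0.05 in edgeR, 7 were higher and 1 was lower. The DESeq2 Wald test called 4 higher and limma voom 2, with 0 lower in either. Lox encodes lysyl oxidase, which starts the crosslinks of collagen and elastin. It had 31.2, 35.5, 28.2 and 40.1 CPM in cKO 1 to 4, against 20.1, 18.1, 13.2 and 22.3 CPM in WT 1 to 4, and all cKO libraries were above all WT libraries (log2 fold change 0.87, SE 0.17, edgeR adjusted p = 0.0273). Its call was lost without cKO 2, cKO 4, WT 2 or WT 4.

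Small proteoglycans and other proteins that bind collagen fibrils had 6 of 18 genes higher and none lower. All 18 log2 fold changes were positive (median 0.56), where 49.9% of all tested genes had a positive value. The 4 with the smallest p were Ogn, Sparc, Bgn and Fbn1. Ogn, the proteoglycan osteoglycin, had 102, 138, 110.1 and 115 CPM in cKO 1 to 4, against 63.5, 59.1, 58.1 and 56.2 CPM in WT 1 to 4 (log2 fold change 0.97, SE 0.11, edgeR adjusted p = 0.0025), and it overlaps Cenpp on the opposite strand. Sparc, a collagen-binding protein of the matrix, averaged 2460.3 ± 219 CPM in cKO and 1552 ± 132 CPM in WT ganglia (SD, n = 4 each; log2 fold change 0.66, SE 0.10, edgeR adjusted p = 0.00856). Bgn, for the proteoglycan biglycan, rose (log2 fold change 0.62, SE 0.11, edgeR adjusted p = 0.0206). Fbn1, for a fibrillin of microfibrils, rose too (log2 fold change 0.61, SE 0.11, edgeR adjusted p = 0.0212). The call of Sparc was lost without WT 4, and those of Bgn and Fbn1 without cKO 2, WT 2 or WT 4.

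Of 14 basement membrane partners 4 rose and none fell (median 0.45; 1 lower at an unadjusted p below 0.05 and by DESeq2, 0 lower by limma voom). Lamc3, a laminin chain, had 3.71, 7.58, 5.22 and 4.86 CPM in cKO 1 to 4, against 1.35, 1.63, 1.43 and 1.88 CPM in WT 1 to 4. It was low in all libraries and had the largest log2 fold change of the tested partner genes (log2 fold change 1.76, SE 0.24, edgeR adjusted p = 0.00623). Lamb2, for another laminin chain, rose (log2 fold change 0.65, SE 0.09, edgeR adjusted p = 0.006). Nid2, for a nidogen that links laminin to type IV collagen, rose as well (log2 fold change 0.56, SE 0.09, edgeR adjusted p = 0.0121). So did Hspg2, for the proteoglycan perlecan (log2 fold change 0.71, SE 0.16, edgeR adjusted p = 0.0403). The call of Nid2 was lost without WT 2 or WT 4, and that of Hspg2 also without cKO 2, cKO 3 or WT 3.

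Of 14 collagen receptors 2 rose and none fell (median 0.31): Gpr56, an adhesion receptor that binds type III collagen, and Antxr1, which binds types I and VI. Gpr56 had 138, 131, 139 and 119 CPM in cKO 1 to 4, against 98.1, 84.3, 80.6 and 88.0 CPM in WT 1 to 4 (log2 fold change 0.59, SE 0.10, edgeR adjusted p = 0.0168), a call lost without cKO 3, WT 2 or WT 4. Antxr1 had a log2 fold change of 0.56 (SE 0.12), a call lost without cKO 1, cKO 2, cKO 3, WT 2, WT 3 or WT 4. Among the 14 receptors 7 were higher at an unadjusted p below 0.05 in edgeR, 3 by DESeq2 and 3 by limma voom.

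The genes of collagen breakdown went in both directions, with 1 of 11 higher and 1 lower. Mmp2, the gelatinase that cuts type IV collagen and unwound chains, had 296, 287, 294 and 291 CPM in cKO 1 to 4, against 508, 466, 519 and 462 CPM in WT 1 to 4. The cKO libraries were close together and all below every WT library, and Mmp2 fell (log2 fold change -0.74, SE 0.08, edgeR adjusted p = 0.0025). Mmp14, the membrane protease that activates the Mmp2 protein and cuts fibrillar collagen, had 131, 124, 117 and 133 CPM in cKO 1 to 4, against 96.9, 72.6, 89.0 and 88.4 CPM in WT 1 to 4 and rose (log2 fold change 0.54, SE 0.11, edgeR adjusted p = 0.0291). The call of Mmp2 held with each library left out, with log2 fold changes from -0.771 to -0.717. That of Mmp14 was lost without any single library other than WT 1.

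**Figure D5:**
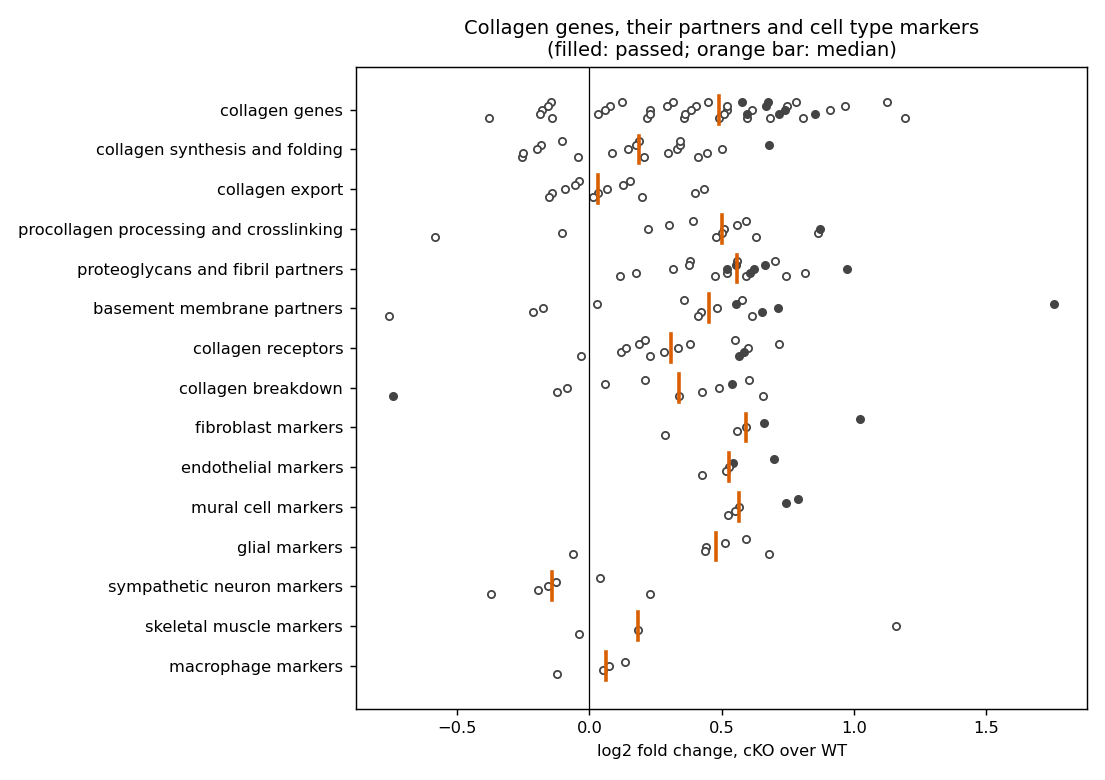
Log2 fold changes, cKO over WT, of the tested collagen genes, of the lists of genes that act on collagen and of cell type markers with at least 3 tested genes (filled points passed, orange bars are medians). The median was 0.49 for collagen genes, 0.59 for fibroblast markers and -0.14 for sympathetic neuron markers, and Mmp2 is the filled point left of 0.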

How the data were processed

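RNA was sequenced from superior cervical ganglia of 4 cKO and 4 WT mice. The authors deposited raw counts, whole numbers for each gene symbol. STAR and mm10 are named in the submitters' processing notes, while version, counter, annotation and strand use were not given in the sources used here. Some reads may thus be shared where Col4a1 and Col4a2, and Col7a1, Col9a3, Col10a1, Col18a1 and Col27a1 with other genes, overlap.

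The fit used edgeR 4.0.16 (R 4.3.3) with TMM scaling, filterByExpr, a robust quasi-likelihood test and genotype alone, over 14592 genes. The threshold was a Benjamini-Hochberg value of 0.05. SE is the size of the log2 fold change over the root of its F. Transcript lengths and positions are from GENCODE vM21 (GRCm38, the assembly called mm10), which matched all 43 symbols. Scripts were tested on simulated counts. Libraries of a genotype differed by more than sampling noise (chi-square per gene 8.01 to 58.6).

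Members, classes and gene lists were chosen with earlier results of these data known. Values per library are given for collagen genes that passed and for the smallest p and the highest level per length of each class. A further rule, for genes with 1 library apart in both genotypes, named none. Each partner list gave up to 4 passing genes, or the 2 with the smallest p. Other genes with values per library or named singly (Col1a1, Col4a2, Col5a3, Col2a1, Col7a1, Col20a1, Col9a2 and Serpinh1) were chosen after their values were seen. The cell type markers named singly (Dbh, Prrx1, Pdgfra, Dcn, Lum, Matn1, Acan, Runx2, Sp7 and Ibsp) were not picked by these rules either. Dcn, Lum and Cspg4 are in 2 lists each. Alternatives were DESeq2 1.42.0 (size factors, Wald test), voom from limma 3.58.1, library size alone, other filters, a replicate block and each library left out. Leaving out cKO 1 and WT 1 together was chosen after seeing the data.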

Additional observations from a re-analysis of the deposited data

Results flagged for a closer look

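In 4 of 86 groups of 4 libraries (43 collagen genes in 2 genotypes), 1 library lay apart from the other 3 by Dixon's 95% criterion. That criterion flags about 1 in 20 groups when values are normal and independent. These groups share the same libraries, so their count cannot be judged against that rate. Col10a1 had 1.49 CPM in cKO 1 and 0.358 to 0.397 CPM in the other cKO libraries. Col2a1 had 14.6 CPM in WT 1 and 6.01 to 6.50 CPM in the other WT libraries. Col6a5 had 6.04 CPM in cKO 4 and 0.454 to 1.20 CPM in the other cKO libraries. Col23a1 had 9.33 CPM in WT 3, below the 10.6 to 10.8 CPM of the other WT libraries. The partner genes named by the rule had no such library in their 32 groups, and the other genes of the partner lists are not counted here.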

How the results depend on the processing

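The count of collagen genes that passed was 7 in edgeR and stayed within 1.5 times of that with DESeq2 size factors, library size alone, both other filters, limma voom and without cKO 1 and WT 1 together. The DESeq2 Wald test gave 17 of 1012 genes called in all, and leaving out 1 library gave 0 to 13 of 74 to 514.  The labels do not say whether replicate numbers pair the libraries, and the correlations between libraries do not decide it. Same-numbered libraries deviated from their group means with correlations of 0.72, 0.35, -0.30 and 0.27 for numbers 1 to 4. Not every library was closest to its own number. A replicate block gave 15 collagen genes of 687 genes called. Beside the 7 these were Col4a1, Col4a2, Col6a6, Col8a1, Col9a2, Col16a1, Col20a1 and Col27a1.

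The 7 genes that passed kept their sign in all settings. Signs turned in 11 genes that did not pass. With 1 library left out, log2 fold changes ranged from -0.610 to 0.274 for Col2a1, -0.405 to 0.150 for Col4a3, -0.0269 to 0.388 for Col4a4, -0.239 to 0.322 for Col5a3, -0.511 to 0.0681 for Col6a4, -1.12 to 0.813 for Col6a5, -0.347 to 0.484 for Col7a1, -0.274 to 0.132 for Col9a3, -0.0371 to 0.237 for Col19a1, -0.370 to 0.0314 for Col22a1 and -0.0783 to 0.206 for Col25a1. Col6a5 had -0.31 in limma voom, and without cKO 1 and WT 1 together Col6a4 had 0.0821 and Col9a3 had 0.0292. The cause was not tested. The DESeq2 Wald test gave no value for Col6a5, and Col4a6 did not pass the filter of 1 CPM. At a few counts per library, differences in Col10a1 and Col17a1 were not detectable at this depth.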
